A study of Mus musculus with 5 samples.

Results

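Interferon-induced genes were followed in mouse liver across diet-induced obesity, leptin deficiency and feeding of nordihydroguaiaretic acid (NDGA), a lignan of the creosote bush known as an antioxidant and lipoxygenase inhibitor. The 9 genes were Gbp2, Gbp3, Igtp, Irgm1, Ifi27, Isg15, Ifit1, Ifit3 and Irf7, out of 16637 genes named on the array. They were found by their symbol or an older synonym, which gave 10 probes: 8 genes had 1 probe, and Ifi27 had a pair of probes. Irgm1 was listed on the array under its older symbol Irgm.

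There were 5 groups, each measured on 1 array with the Cy5 dye. They were wild-type (WT) mice on a high-fat diet with NDGA, WT mice on the high-fat diet, ob/ob mice on chow with NDGA, ob/ob mice on chow, and WT mice on chow. NDGA was given at 2.5 g per kg of food, all diets lasted 16 weeks, and all mice were on the C57BL/6 background. The ob/ob mouse carries a spontaneous loss of function of the leptin gene in every cell. Per the series' design text, RNA came from 3 animals per group, and the sources used here do not say if they were pooled. With 1 array per group there is no replicate error, no test and no p-value, and every difference below is between 2 arrays.

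Interferons are secreted when cells sense foreign nucleic acids or when lymphocytes are activated. Type I interferons signal through JAK1 and TYK2 to their target genes, many of which carry the interferon-stimulated response element (ISRE). Interferon-gamma signals through JAK1 and JAK2, and many of its targets carry the gamma-activated site (GAS). Guanylate-binding proteins (GBPs) and immunity-related GTPases (IRGs) are typical interferon-gamma targets that attack the vacuoles of intracellular pathogens, whereas Isg15, the IFIT proteins and Irf7 are typical type I targets. In liver both hepatocytes and the resident macrophages, called Kupffer cells, respond to interferons.

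Deposited intensities are given per probe, and the level of one probe is never set against that of another. Differences are on the log2 scale after quantile normalization of the 5 arrays and addition of 50, which understates the change of dim probes. A gene was called expressed in a comparison when its mean on the pair of arrays reached the median of all genes. It was counted when it differed at least 2-fold, a log2 difference of 1. A gene near that median can pass through its brighter array alone, and its direction is then tied to its passing. As a yardstick for the scatter between probes of a gene, the SD per probe was taken among genes with 2 expressed probes. It was 0.34 when NDGA was added to the high-fat diet and 0.36 for high-fat diet against chow. For NDGA given to ob/ob mice it was 0.48, and for ob/ob against WT 0.28. An effect of the array or the animals that both probes share cancels in this SD, so it does not measure scatter between arrays.

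The deposited intensity medians of the arrays lay between 38.1 and 47.0 for 4 arrays and at 71.0 for ob/ob on chow with NDGA, which stood apart. The hepatocyte marker Alb, the serum albumin, read from 62274 to 65764 on the 5 arrays, at or near the limit of the scanner. Lep, which encodes leptin, read from 5.76 to 15.8, and liver does not normally make leptin, so the genotype labels were not checked by it.

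Sequence around the interferon motifs is shown for the 7 genes whose RefSeq promoter window (GRCm38.p6, 250 bases before to 50 after the start) held a match, because these motifs are where the interferon-activated complexes bind. The windows were searched on both strands for the repeated core of the ISRE, GAAA followed by any 2 bases and a second GAAA, and for the core of the GAS, TTCNNNGAA. Of the 9 genes, 8 had a window (Ifi27 had none). In each line below, printed 5′ to 3′ on the strand of the gene, capitals mark every motif match, overlapping ones run together, and 20 bases flank the outermost matches.
Gbp2: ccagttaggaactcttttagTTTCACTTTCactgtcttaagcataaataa
Gbp3: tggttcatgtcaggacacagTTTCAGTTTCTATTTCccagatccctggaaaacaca
Igtp: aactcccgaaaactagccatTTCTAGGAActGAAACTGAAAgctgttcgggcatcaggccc
Irgm1: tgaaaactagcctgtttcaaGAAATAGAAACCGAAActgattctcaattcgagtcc
Isg15: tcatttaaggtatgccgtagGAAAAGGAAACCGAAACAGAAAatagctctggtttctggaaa
Ifit1: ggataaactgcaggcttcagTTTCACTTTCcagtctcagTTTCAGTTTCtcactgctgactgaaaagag
Ifit3: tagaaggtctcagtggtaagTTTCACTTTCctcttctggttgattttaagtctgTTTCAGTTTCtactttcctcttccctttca

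The stretches lie at chr3:142620584-142620633 on the plus strand for Gbp2, chr3:142559979-142560034 on the plus strand for Gbp3, chr11:58199491-58199551 on the plus strand for Igtp and chr11:48871415-48871470 on the minus strand for Irgm1. Those of the type I targets lie at chr4:156200855-156200916 on the minus strand for Isg15, chr19:34640765-34640833 on the plus strand for Ifit1 and chr19:34583353-34583436 on the plus strand for Ifit3. Isg15 held 3 overlapping ISRE matches in a row, Gbp3 and Irgm1 each held 2 that overlap, and Ifit1 and Ifit3 each held 2 that are apart. Igtp held 1 ISRE and the single GAS match, TTCTAGGAA, a short step upstream of it. Of all 32851 RefSeq windows of this length, 3.44% held the ISRE core and 8.30% the GAS core. The Irf7 window and the second window of Gbp3 held no match to either. The window starts of Gbp3, Ifit3 and Irf7 lie inside the annotated span of the gene, and a match is a description of the letters, not evidence of binding.

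**Figure D1:**
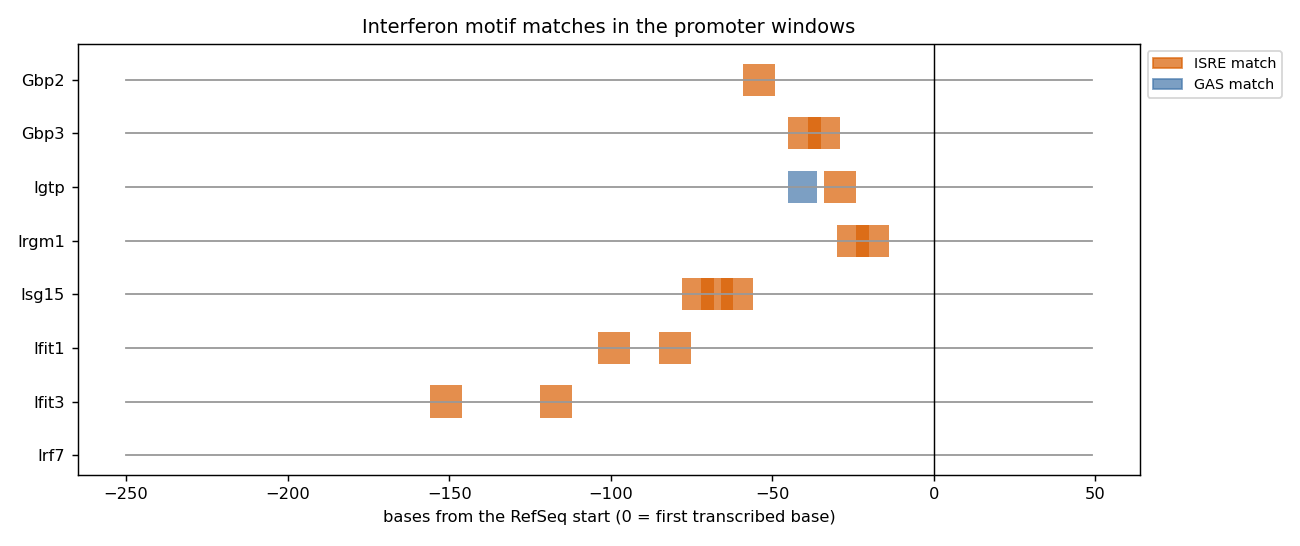
Positions of ISRE (orange) and GAS (blue) core matches in the RefSeq promoter windows of 8 genes, in bases from the start; for Gbp3 the window that held matches is drawn. All 13 ISRE matches lie upstream of the start, and the line for Irf7 carries none.

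The 4 GTPases among the members were lower on the array of WT mice given NDGA with the high-fat diet than on the WT high-fat array, which in turn was higher than WT chow. Gbp3, a guanylate-binding protein, read 344 on WT high-fat diet with NDGA, 873 on WT high-fat diet, 671 on ob/ob chow with NDGA, 456 on ob/ob chow and 416 on WT chow. Its log2 difference was -1.33 for NDGA on the high-fat diet, 2.51-fold lower, and 0.98 for high-fat diet against chow. The WT high-fat array was the highest of the 5.

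Igtp, also called Irgm3, is an IRG protein that guards the cell's own membranes and lipid droplets against the attack by other IRG proteins. It read 172 on WT high-fat diet with NDGA, 442 on WT high-fat diet, 504 on ob/ob chow with NDGA, 170.1 on ob/ob chow and 225 on WT chow. Its log2 differences were -1.26 for NDGA on the high-fat diet, 0.86 for high-fat diet, 0.60 for NDGA in ob/ob and -0.18 for ob/ob against WT. The high arrays were thus WT high-fat diet and ob/ob chow with NDGA.

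Gbp2, another guanylate-binding protein, had a dim probe that passed the filter in only 1 of the 4 comparisons. It read 42.2 on WT high-fat diet with NDGA, 128 on WT high-fat diet, 164 on ob/ob chow with NDGA, 68.6 on ob/ob chow and 29.0 on WT chow. The log2 difference was -1.08 with NDGA on the high-fat diet and 1.19 on high-fat diet, and it was 0.31 with NDGA in ob/ob and 0.66 for ob/ob over WT. Both arrays of ob/ob mice lay above WT chow.

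Irgm1, an IRG protein that regulates the others and takes part in autophagy, varied less. It read 1747 on WT high-fat diet with NDGA, 2210.4 on WT high-fat diet, 2186 on ob/ob chow with NDGA, 1518 on ob/ob chow and 1718 on WT chow. The log2 differences were 0.37 for high-fat diet and -0.37 for NDGA on it, close to the SD per probe.

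Isg15 encodes a ubiquitin-like protein that is attached to other proteins after interferon exposure. Its probe read 293 on WT high-fat diet with NDGA, 634 on WT high-fat diet, 488 on ob/ob chow with NDGA, 281 on ob/ob chow and 378 on WT chow. Its log2 difference was -1.10 for NDGA on the high-fat diet (2.14-fold lower) and 0.69 for high-fat diet. In ob/ob it was -0.09 with NDGA, and -0.19 for ob/ob over WT.

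The genes that attach and remove ISG15 differed less. Of 5 such genes, 4 were expressed in the WT comparisons and 0 differed 2-fold. The activating enzyme Uba7 was at 0.44 for high-fat diet and -0.52 for NDGA on it, and the conjugating enzyme Ube2l6 at 0.33 and -0.13. Usp18, the protease that removes ISG15 and dampens type I signalling, was at 0.34 and -0.33. The 4 were all lower with NDGA on the high-fat diet (median -0.41), set against 52.8% of all expressed genes (median -0.03). Usp18 passed the filter through the WT high-fat array, so its direction was tied to its passing. It read 101 there, 79.0 on WT high-fat diet with NDGA and 71.4 on WT chow. On these arrays all named genes had medians of 82.4, 87.6 and 80.7.

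Ifi27 encodes a small mitochondrial and nuclear membrane protein that is used as a marker of interferon exposure. The probe that stands for it in all counts is listed as D12Ertd647e, a synonym of Ifi27, and read 1417 on WT high-fat diet with NDGA, 3136 on WT high-fat diet, 2265 on ob/ob chow with NDGA, 1252 on ob/ob chow and 1667 on WT chow. The probe listed as Ifi27 read 175 on WT high-fat diet with NDGA, 664 on WT high-fat diet, 585 on ob/ob chow with NDGA, 259 on ob/ob chow and 153 on WT chow. In the RefSeq gene table Ifi27 is also an older synonym of the gene Ifi27l2a, so which of these genes this probe measures was not settled here.

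Both probes were highest on WT high-fat diet. The D12Ertd647e probe differed by 0.90 for high-fat diet and -1.15 for NDGA on it, and the Ifi27 probe by 1.85 (3.61-fold) and -1.79. For ob/ob against WT on chow they disagreed in sign, at -0.14 for the D12Ertd647e probe and 0.81 for the Ifi27 probe.

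The IFIT proteins bind foreign RNA and block its translation. Ifit3 had a dim probe that passed the filter in 0 of the 4 comparisons. It read 39.2 on WT high-fat diet with NDGA, 104 on WT high-fat diet, 86.8 on ob/ob chow with NDGA, 35.3 on ob/ob chow and 23.3 on WT chow, at a log2 difference of -0.91 with NDGA on the high-fat diet and 1.12 on the high-fat diet. Ifit1 read 7.26 on WT high-fat diet at most and 4.05 on WT chow at least, below the 25th percentile of every array, so no change could be measured for it. Whether the probes also bind close relatives such as Ifit3b was not tested.

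Irf7, the transcription factor that amplifies type I interferon production, did not follow the others. It read 6685 on WT high-fat diet with NDGA, 7654 on WT high-fat diet, 8469.8 on ob/ob chow with NDGA, 6180.3 on ob/ob chow and 8442 on WT chow. Its log2 differences were -0.04 for NDGA on the high-fat diet, -0.23 for high-fat diet and -0.18 for ob/ob against WT. With NDGA in ob/ob it was -0.59, or 0.45 on the deposited values without normalization.

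**Figure D2:**
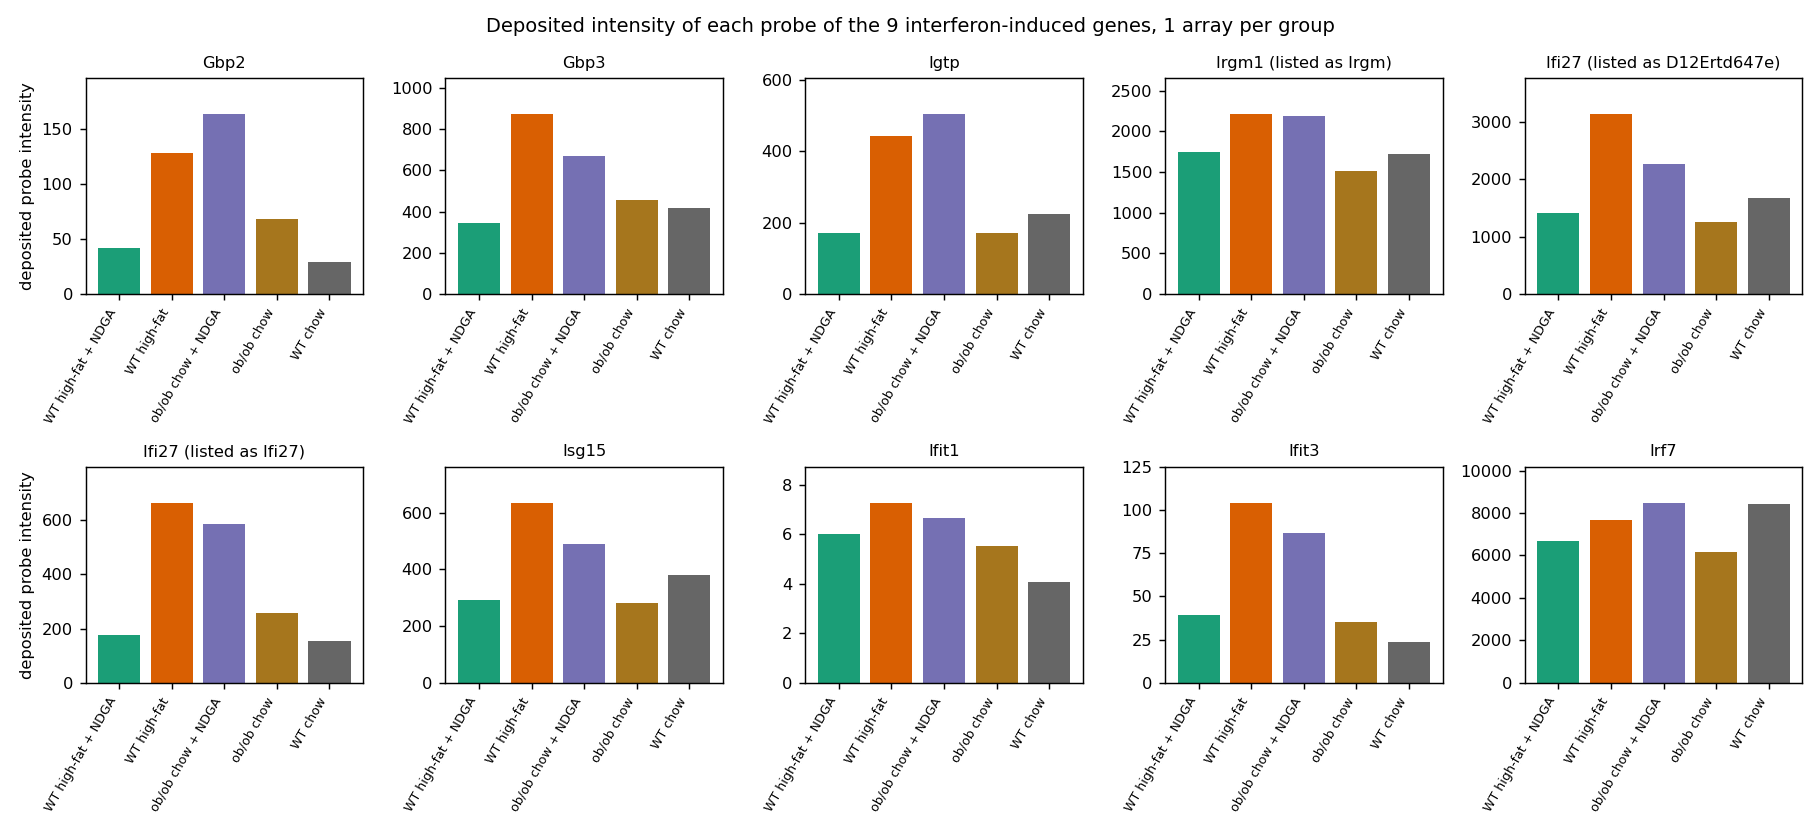
Deposited intensity (linear axis from 0, a scale of its own per panel) of the 10 probes of the 9 genes on each of the 5 arrays; a bar is 1 array, so there are no error bars. Gbp3, both Ifi27 probes, Isg15 and Ifit3 are highest on WT high-fat diet, and Irf7 lies between 6180.3 and 8469.8 throughout.

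The effect of NDGA in diet-induced obesity is read from the high-fat diet with and without NDGA, and here the median of the genes was farthest from 0 among the 4 main comparisons. Of the 6 expressed members, 4 passed 2-fold downward, namely Isg15, Igtp, Gbp3 and Ifi27, and 0 upward. Over all 8319 expressed genes 1.56% passed 2-fold downward and 0.902% upward. The median of the 6 was -1.12, against -0.03 over all expressed genes. Without the filter all 9 genes had a negative difference, and with Gbp2 there were 5 at least 2-fold lower, where 0.829% of all named genes were.

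High-fat diet against chow in WT asks what diet-induced obesity did. Of the 6 expressed members, 5 were higher and Irf7 was not, with a median of 0.77 against -0.01 over all expressed genes. Among the 6, 0 were at least 2-fold higher, where 2.13% of all expressed genes were, and 0 at least 2-fold lower, where 1.33% were. Gbp3 stood at 0.98, just short of 2-fold, and without the filter the dim genes Gbp2 and Ifit3 were past it, where 1.15% of all named genes were. The WT high-fat array serves in both WT comparisons, once on top and once as the base, so the increase and the decrease are not independent of each other.

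Set directly against WT chow, the array of WT mice given the high-fat diet with NDGA read lower by 0.31 in the median of the 6 expressed members (log2 difference -0.31; all expressed genes -0.02). The differences ran from -0.41 for both Igtp and Isg15 to 0.20 for Ifit3 over all 9 genes, and 0 reached 2-fold, where 0.829% of all expressed genes passed it upward and 0.649% downward.

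The effect of leptin deficiency is read from ob/ob and WT mice, both on chow. The median of the 6 expressed members was -0.16 against 0.04 over all expressed genes, with 2 higher and 4 lower. None was at least 2-fold higher or lower, where 1.03% of all expressed genes were higher and 1.79% lower. Gbp3 was at 0.32, Irgm1 at 0.11 and Isg15 at -0.19, while Irgm1 changed sign on the deposited values without normalization (-0.17) and after median centring (-0.16).

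Set against each other, ob/ob chow read lower than WT high-fat diet for 6 of the 7 members expressed there, with a median of -0.66 (0.06 over all expressed genes). Igtp was at -1.04 and Ifi27 at -1.03, the 2 members at least 2-fold lower, where 1.96% of all expressed genes were, and 0 were at least 2-fold higher, where 0.337% were. Irf7 was at 0.05. Gbp2, among the 6 lower, passed the filter through its higher array. It read 128 on WT high-fat diet and 68.6 on ob/ob chow, where all named genes had medians of 82.4 and 73.1. These 2 groups differ in genotype and in diet together, which cannot be told apart.

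NDGA in ob/ob mice gave no common direction. Of the 7 expressed members, 2 were higher (Igtp at 0.60 and Gbp2 at 0.31) and 5 lower, led by Irf7 at -0.59, Irgm1 at -0.40 and Gbp3 at -0.32, with a median of -0.09 equal to that of all expressed genes (-0.09). Gbp2 passed the filter through its higher array, so its direction was tied to its passing. It read 164 on ob/ob chow with NDGA and 68.6 on ob/ob chow, where all named genes had medians of 132 and 73.1. None of the 7 was at least 2-fold higher or lower, where 6.74% of all expressed genes were higher and 0.505% lower. The signs depended on the scaling: on the deposited values without normalization all 9 genes were higher, with Igtp at 1.33 and a median of 0.70 over the 7, but the median of all expressed genes was then 0.68. Igtp and Gbp2 were higher and above the median of all expressed genes under quantile, median-centred, loess and unnormalized values alike.

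Against WT chow, the array of ob/ob mice given NDGA had 6 expressed members, of which Igtp was higher (0.41) and 5 were lower, with a median of -0.24 (-0.04 over all expressed genes). Irf7 was lowest at -0.77, and dim Gbp2 stood at 0.97. None passed 2-fold, where 7.46% of all expressed genes did upward and 3.21% downward. Ifi27 was at -0.20 by its D12Ertd647e probe, but at 1.05 (2.07-fold higher) by the probe listed as Ifi27, which would count as past 2-fold. Genotype and NDGA differ together here and cannot be told apart.

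**Figure D3:**
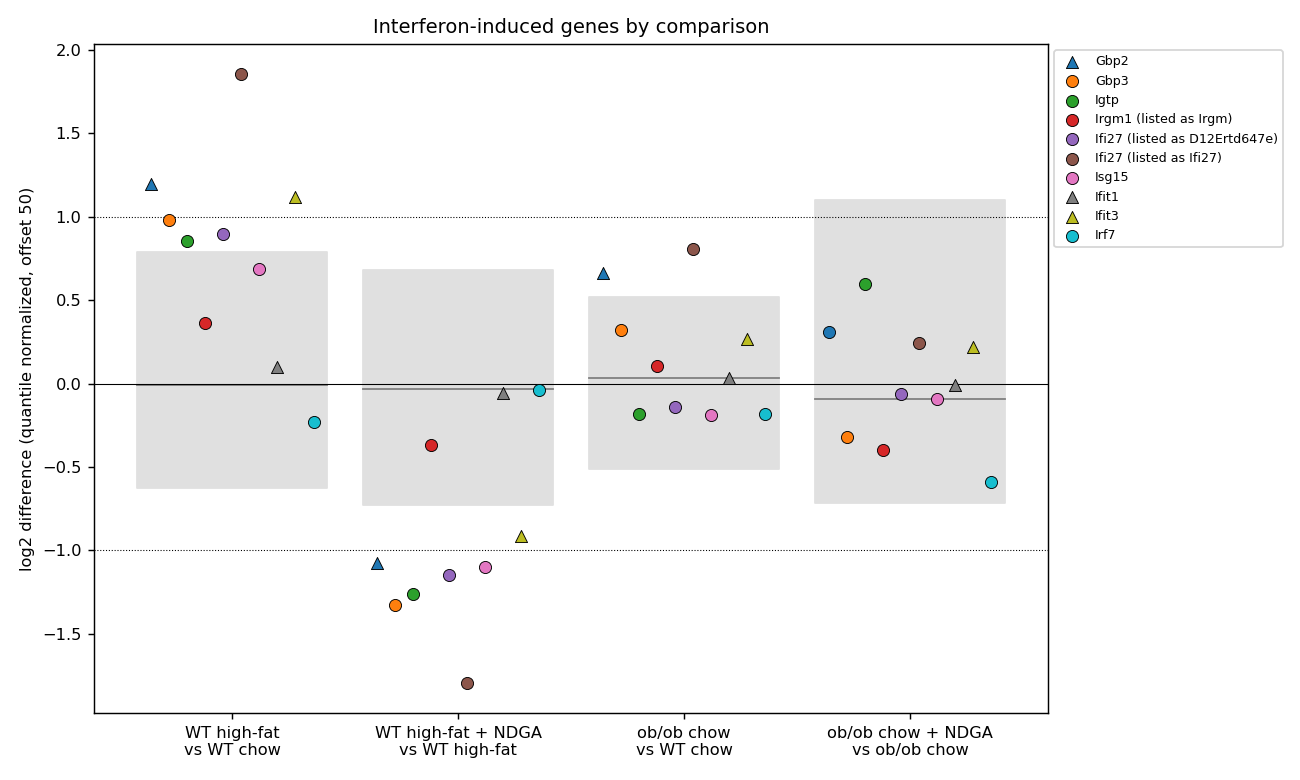
Log2 difference of each probe of the 9 genes in 4 comparisons; circles are expressed there, triangles are below the filter, the grey box spans the 5th to 95th percentile of all expressed genes with their median as a line, and dotted lines mark 2-fold. With NDGA on the high-fat diet Gbp3, Igtp, Isg15 and both Ifi27 probes lie below the grey box, while in ob/ob with NDGA every probe lies inside it.

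**Figure D4:**
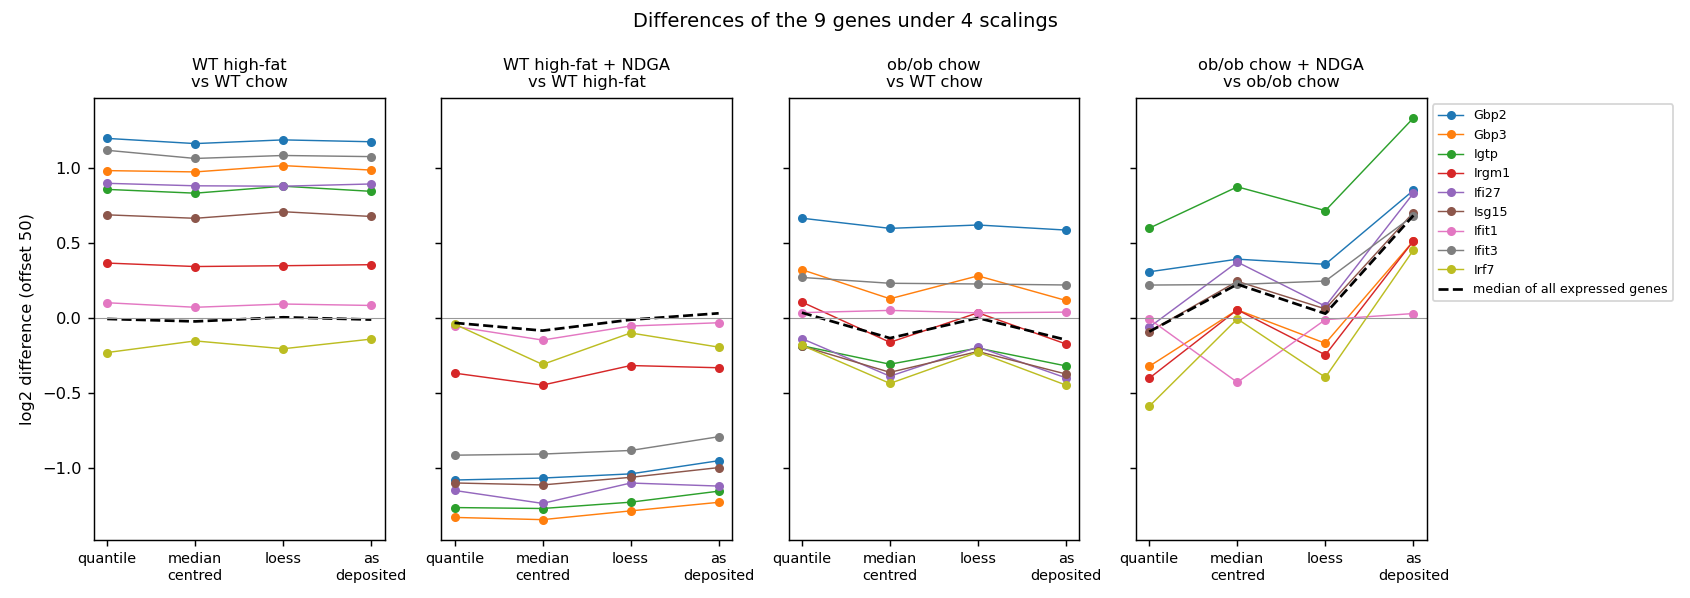
Log2 difference of the 9 genes in 4 comparisons under quantile normalization, median centring, loess and the values as deposited (Ifi27 by its D12Ertd647e probe); the dashed line is the median of all expressed genes. Every gene keeps its sign for high-fat diet and for NDGA on it, and in ob/ob with NDGA all 9 genes are highest as deposited, where the dashed line stands at 0.68 against -0.09 after quantile normalization.

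The rest of the interferon pathway was read from 9 lists with 131 genes, 100 of them named on the array. With NDGA on the high-fat diet 50 of 65 expressed genes were lower and 15 higher (median -0.36), so 76.9% were lower against 52.8% of all expressed genes. At least 2-fold lower were 4 of them, 6.15% against 1.56% of all expressed genes, and 1 (Irf2) was at least 2-fold higher, 1.54% against 0.902%. The 4 became 2 without normalization and after loess. For high-fat diet against chow 43 of 64 were higher, 67.2% against 49.2% of all, with a median of 0.27. At least 2-fold higher were 4, 6.25% against 2.13% of all expressed genes, or 2 without normalization and after median centring, and Irf2 was at least 2-fold lower. Usp18, Rsad2, Trim21, Psmb9 and Socs3, among the 50 lower, passed the filter through the WT high-fat array. The same held for Usp18, Trim21 and Psmb9 among the 43 higher, and Oas1a, among the 15 higher, passed through the array with NDGA. The directions of these genes were tied to their passing.

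With NDGA in ob/ob 43 of 60 expressed genes of these lists were lower, 71.7% against 56.2% of all expressed genes, with a median of -0.15 against -0.09 and 0 past 2-fold. This direction depended on the scaling: 33 of 60 were lower after loess, 23 after median centring and 2 without normalization. Under the 4 scalings, 33 to 36 of the 60 lay below the all-gene median of the same scaling. Whether the response to NDGA differed between WT and ob/ob mice was not tested.

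Among other GBP and IRG genes, only Ifi47, an IRG protein, differed 2-fold in a main comparison. It read 1463 on WT high-fat diet with NDGA, 2976 on WT high-fat diet, 2271 on ob/ob chow with NDGA, 1301 on ob/ob chow and 1470.4 on WT chow. Its log2 difference was -1.04 for NDGA on the high-fat diet and 1.00 for high-fat diet. The 2-fold call for high-fat diet was lost without normalization, after median centring and after loess. The call for NDGA on that diet was lost without normalization and after loess. Gbp6, Gbp2b and Iigp1 stayed between -0.30 and 0.13 in both of these comparisons, and the 4 expressed genes had medians of -0.14 for NDGA on the high-fat diet and -0.03 for high-fat diet. With NDGA in ob/ob all 4 were lower (median -0.43), with Gbp2b at -0.89, Gbp6 at -0.46 and Iigp1 at -0.40, but 3 were lower after loess, 2 after median centring and 1 without normalization.

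Of 40 other type I targets on the array, 26 were expressed in the comparison of NDGA on the high-fat diet, 21 of them lower, with a median of -0.41. Cmpk2, a mitochondrial nucleotide kinase, was at -1.71 (105 on WT high-fat diet with NDGA against 417 on WT high-fat diet), and Tor3a, an ATPase of the endoplasmic reticulum, was at -1.19. For high-fat diet 20 of 25 were higher (median 0.40), with Samd9l, an antiviral factor, at 1.23 and Cmpk2 at 1.09 past 2-fold. Rsad2 and Trim21, among the 21 lower, passed the filter through the WT high-fat array, as did Trim21 among the 20 higher. There Rsad2 read 161 and Trim21 117, against 73.4 and 86.8 with NDGA, and Trim21 read 58.5 on WT chow. All named genes had medians of 87.6 with NDGA and 80.7 on WT chow. Oas1a, among those higher with NDGA on that diet, passed through the NDGA array (133 against 78.3). The directions of these genes were tied to their passing. Samd9l was also at 1.08 in ob/ob against WT, where 14 of 25 were higher (median 0.08), or 6 of 25 without normalization and after median centring.

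In the WT comparisons interferon-gamma targets outside the GTPases differed less in the median than the expressed members (-1.12 for NDGA on the high-fat diet, 0.77 for high-fat diet). Of 8 expressed, 7 were lower with NDGA on the high-fat diet (median -0.35, 0 at least 2-fold lower), led by the chemokine gene Cxcl9 at -0.73. For high-fat diet their median was 0.02, with 4 higher and 4 lower. Psmb9, among the 7 and among the 4 higher, passed the filter through the WT high-fat array (129). It read 72.6 on WT high-fat diet with NDGA and 69.4 on WT chow, below the medians of all named genes (87.6 and 80.7). With NDGA in ob/ob all 7 expressed were lower (median -0.39), but 5 were lower after loess, 4 after median centring and 0 without normalization.

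Ligand genes gave little signal. Of 6 on the array, Ifnb1, Ifna4, Ifna11 and Ifnk lay below the array median on all 5 arrays. Ifng, which encodes interferon-gamma, had deposited intensities of 301 on WT high-fat diet with NDGA, 266 on WT high-fat diet, 297 on ob/ob chow with NDGA, 268 on ob/ob chow and 296 on WT chow. On the normalized scale it was at 0.05 for NDGA on the high-fat diet and -0.61 for NDGA in ob/ob. The ob/ob value was 0.13 without normalization, -0.33 after median centring and -0.48 after loess.

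Of the receptors, Il10rb, a chain shared by interferon-lambda and interleukin-10 receptors, was at 1.01 for high-fat diet and -1.04 for NDGA on it. The 2-fold call for high-fat diet was lost without normalization and after median centring. The call for NDGA on that diet was lost without normalization and after loess. Both interferon-gamma receptor chains were higher on high-fat diet, Ifngr1 by 0.65 and Ifngr2 by 0.76, and with NDGA they were at -0.74 and -0.22. The type I receptor gene Ifnar2 was at -0.08 and 0.11, and Ifnar1 was below the array median throughout.

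Signalling genes had a median of 0.29 for high-fat diet and -0.40 for NDGA on it over 5 expressed genes, with 0 past 2-fold. The kinase gene Jak1 was at 0.98 and -0.56. Stat2 and Irf9 were below the filter in all 4 comparisons, and Irf1 was at -0.16 and -0.40. Nucleic acid sensors and adaptors had medians of 0.14 and 0.16 over 7 expressed genes, with 0 past 2-fold.

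Irf2, which encodes a repressor that competes with IRF1 for its sites, ran the other way in the 2 WT comparisons. It read 4782 on WT high-fat diet with NDGA, 2154 on WT high-fat diet, 935 on ob/ob chow with NDGA, 751 on ob/ob chow and 6721 on WT chow. Irf2 stood at 1.21 with NDGA on the high-fat diet, at -1.67 for high-fat diet and at -2.89 for ob/ob against WT, on a single probe. For ob/ob against WT the expressed members had a median of -0.16, so no opposite change went with that of Irf2. With NDGA in ob/ob Irf2 was at -0.57 after normalization, though higher as deposited, and the members had a median of -0.09. The feedback inhibitor Socs1 was at -0.16 for high-fat diet and 0.46 for NDGA on it, and Socs3 at 0.33 and -0.86. In the NDGA comparison Socs3 passed the filter through the WT high-fat array (146), so its direction was tied to its passing. It read 67.0 with NDGA, below the median of all named genes there (87.6).

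**Figure D5:**
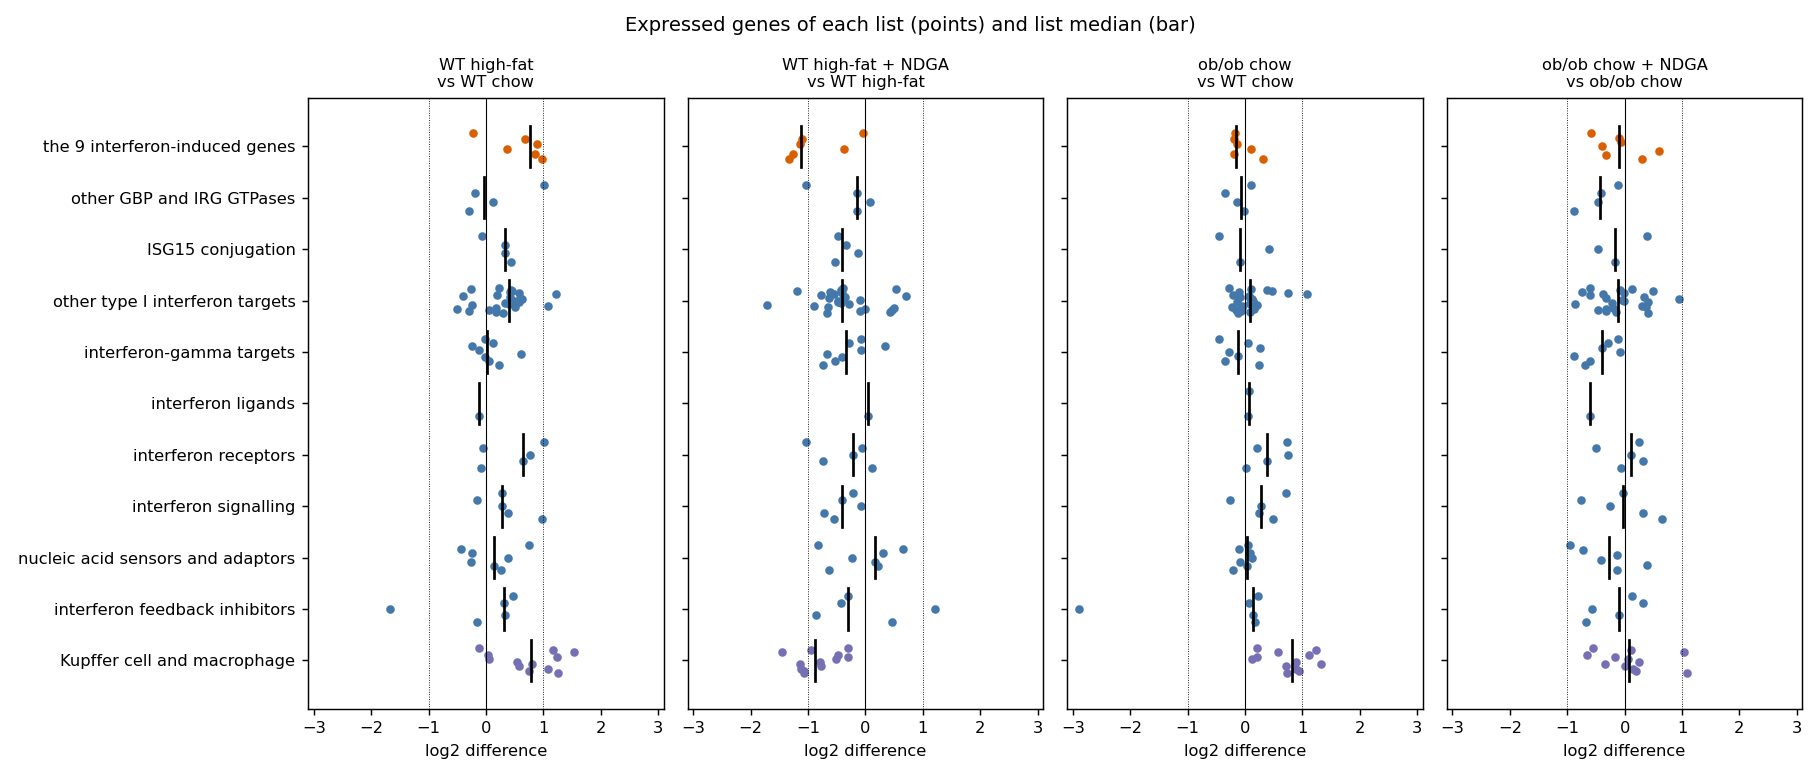
Log2 differences of the expressed genes (points) of each interferon list and of the Kupffer cell and macrophage markers in 4 comparisons, with list medians as bars and dotted lines at 2-fold. The expressed members and the other type I targets sit mostly on the negative side with NDGA on the high-fat diet, and the macrophage markers sit on the positive side in ob/ob against WT, where the members scatter around 0.

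In the WT comparisons most expressed macrophage, stellate cell and sinusoidal endothelial markers ran in the same direction as these genes. In bulk liver, fewer cells of a type and less RNA per cell cannot be told apart. Of 14 macrophage markers, 12 were expressed, and 5 of them were at least 2-fold lower with NDGA on the high-fat diet (median -0.88), where 1.56% of all expressed genes were, and 3 without normalization. On high-fat diet 5 were at least 2-fold higher (median 0.78), where 2.13% of all expressed genes were. Their summed normalized intensity was 6432 on WT high-fat diet with NDGA, 12047 on WT high-fat diet, 14049.5 on ob/ob chow with NDGA, 15536 on ob/ob chow and 7709.75 on WT chow, with Cd5l and Cd163 below the array median on every array.

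Of the stellate cell markers, 2 of 7 expressed were at least 2-fold lower with NDGA on the high-fat diet (median -0.59), where 1.56% of all expressed genes were. The 2 were the collagen genes Col3a1 at -2.03 and Col1a2 at -1.46. In all 5 were lower and 2 were higher, Acta2 at 0.89 and Des at 0.48. Col1a1 and Lrat, among the 5, passed the filter through the WT high-fat array (129 and 110) and read 53.4 and 79.4 with NDGA. On high-fat diet 3 of 6 were at least 2-fold higher (median 0.89), where 2.13% of all expressed genes were, with Col3a1 at 2.69 and Col1a2 at 2.39. Col1a2 passed the filter there through the WT high-fat array (602), as it read 77.8 on WT chow, where all named genes had a median of 80.7. Sinusoidal endothelial markers were lower in 6 of 6 with NDGA on the high-fat diet (median -0.39). On high-fat diet 4 of 5 were higher (median 0.29), with 0 past 2-fold in either comparison. Kdr, among the 6, passed the filter through the WT high-fat array (92.5). It read 81.3 with NDGA, below the median of all named genes (87.6).

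In ob/ob against WT all 12 expressed macrophage markers were higher (median 0.81), or 11 without normalization and after median centring, and 3 were at least 2-fold higher, where 1.03% of all expressed genes were. Stellate cell markers had a median of 0.83 there and sinusoidal endothelial markers one of 0.40. Of the interferon-induced genes, the 6 expressed had a median of -0.16, and all 9 without the filter had one of 0.04. Of 11 T and NK cell markers, 7 lay below the array median on all 5 arrays, and the 3 expressed ones had a median of -0.34 for high-fat diet and 0.19 for NDGA on it. Both plasmacytoid dendritic cell markers, Siglech and Ccr9, lay below the array median on all 5 arrays. Skeletal muscle markers had a summed normalized intensity of 8648 on WT high-fat diet with NDGA and 1587 on WT high-fat diet. The sum was 3062 on ob/ob chow with NDGA, 2393 on ob/ob chow and 1276 on WT chow. With NDGA in ob/ob, Pvalb (-0.43) and Myl1 (-0.09) were lower after normalization and the other muscle markers higher. Ckm read 316 on ob/ob chow with NDGA against 12.4 on ob/ob chow. The part of macrophage, stellate cell, endothelial or muscle RNA in the differences of the interferon-induced genes was not tested.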

How the data were processed

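Liver RNA was hybridised in 1 colour to Phalanx Mouse OneArray slides, with 1 array for each of 5 groups. The deposited values are probe intensities on a linear scale, as judged from the values, which run below 0 and pile up above 65000. The sources used here do not say which scanner, background correction or scaling the authors used. Of 29922 probes, 21020 carried 1 symbol in the platform annotation, 0 several and 8902 none; symbols were updated through RefSeq (GRCm38.p6): 17558 were current, 3410 replaced through a unique synonym and 52 kept. The log2 medians of the arrays differed by 0.46, so values were quantile normalized, 50 was added (an offset chosen with the values known) and log2 taken, with Python 3.11.15. Where a gene had several probes, the one brightest on average stood for it. There was 1 array per group, which limits the precision, and no test was made.

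The members and lists were chosen with earlier results of these data known. All 9 members are named, with list genes at least 2-fold apart and expressed in a main comparison and some fixed regulators. Others were chosen after their values were seen: the remaining ISG15, receptor, signalling and GTPase genes, Cxcl9, Psmb9, Socs3, Kdr and the stellate cell genes. Rsad2, Trim21, Oas1a, Ifne and the skeletal muscle genes were chosen in the same way. Promoter sequences come from RefSeq. Alternatives were no normalization, median centring, loess (span 0.3), an offset of 16, a filter at the 75th percentile or none, averaging a gene's probes and a floor at the 25th percentile, and, added after the data were seen, Ifi27 by its other probe. The steps were tested on simulated data.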

Additional observations from a re-analysis of the deposited data

Results flagged for a closer look

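Igtp differed between WT and ob/ob mice in its response to NDGA, with opposite signs that both exceeded the SD per probe. Its log2 difference was -1.26 with NDGA on the high-fat diet in WT and 0.60 with NDGA on chow in ob/ob, so the WT effect minus the ob/ob effect was -1.86. On the deposited values without normalization the 2 effects were -1.15 and 1.33, and after loess -1.23 and 0.71. The difference was not tested, since each effect rests on 2 arrays, and the WT and ob/ob mice also received different base diets.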

How the results depend on the processing

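No paired analysis was possible because each group has 1 array and the labels give no replicate numbers. For NDGA on the high-fat diet the median of the expressed members ran from -1.18 to -1.06 over the 9 alternatives, and for high-fat diet from 0.69 to 0.86. The number of members at least 2-fold higher on high-fat diet, 0 by the main settings, was 1 after loess and with an offset of 16 (Gbp3), 1 with the other Ifi27 probe, 2 without the filter (Gbp2 and Ifit3) and 2 with the mean of all probes (Gbp2 and Ifi27). For NDGA in ob/ob the median turned to 0.70 without normalization, where 1 member (Igtp) was at least 2-fold higher and all expressed genes had a median of 0.68. For ob/ob against WT the median ran from -0.35 (no normalization) to 0.04 (no filter), where the SD per probe was 0.28. Without normalization the lower count with NDGA on the high-fat diet was 3, as Isg15 stood at -0.995; with a filter at the 75th percentile it was also 3, as Igtp was filtered out. Spread between mice is unknown, and Gbp2, Ifit1 and Ifit3 are too dim for firm folds.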

Other observations

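Genes outside the 9 were ranked by how closely their profile over the 5 arrays followed the median profile of the 6 members expressed over all arrays, by the root mean square distance of log2 values centred on their own mean. Of 8313 genes compared, the closest was Ifi47 (distance 0.096, against a median of 0.44 over all), itself an interferon-induced GTPase. It was followed by Serpinh1, which encodes a collagen chaperone (0.12), Hspa4l, a heat shock protein gene (0.13), Tbx3, a transcription factor gene (0.14), and Trim34a, a TRIM family gene on the type I list (0.14). For NDGA on the high-fat diet these genes were at -1.04 (Ifi47), -1.08 (Serpinh1), -0.74 (Hspa4l), -0.86 (Tbx3) and -0.63 (Trim34a). The arrays of that comparison entered the ranking, so this shared direction followed from how the genes were picked. With 5 arrays the ranking is a description.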
